A study of Homo sapiens with 9 samples.

Results

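RNA polymerase II (RNAPII) was mapped by ChIP-seq in HEK293, a line of human embryonic kidney cells, to ask how its distribution along genes changes when RECQL5 is depleted or overproduced. The peaks considered here lie in the early gene body, the stretch just past the promoter. A peak was a member when its summit lay over 500 and up to 3000 bp past the start site of transcription (TSS) of the longest protein-coding transcript of a gene at least 10000 bp long, and more than 500 bp from any other protein-coding TSS. By this rule 4261 of the 142069 peaks in 5 lists were members. They numbered 108 of 5287 with a control shRNA, 694 of 23698 upon RECQL5 shRNA5 and 743 of 32124 upon RECQL5 shRNA7. In HEK293 T-REx cells they numbered 1643 of 47060 without doxycycline (0.0 ng/ml) and 1073 of 33900 with it (1.0 ng/ml).

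The hairpins and their control were delivered by lentivirus into HEK293 cells, and each list of this arm had an IgG library of its own. The control is labelled as a control shRNA, while the study's methods describe it as an empty lentiviral vector. Its list is counted among the hairpin lists below. The T-REx cells of both doxycycline lists had been given a plasmid that expresses full-length RECQL5 from a doxycycline-driven promoter, so the cells without the drug also contained the plasmid. The other 4 of the 9 libraries were made with non-specific IgG and served as the background of the peak calls, with a single IgG library taken as that of both doxycycline lists. Each group was 1 library, so all differences are between single libraries, no test between conditions was possible and the 95% intervals, given in parentheses after a value, cover counting error only. Of 6 genes chosen as markers of HEK293 cells, only HOXA9 had a peak at its TSS, in every list, and none of 8 genes that mark liver, blood, heart, pancreatic islet or astrocyte had one.

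RNAPII begins transcription at the promoter, commonly pauses shortly after the start and is then released into productive elongation, during which it gains speed over the first part of the gene. The early gene body therefore lies between the paused polymerase and the fully elongating one, and in long genes it usually falls in the first intron. RECQL5 is a DNA helicase of the RECQ family that binds RNAPII and slows transcript elongation in reactions with purified proteins. A summit marks where the tags of a peak pile up highest, while the peak itself can extend over the promoter.

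The sequence under some of these summits is shown first, because base composition was among the properties in which the lists differed. Each is 201 bases of GRCh37 centred on a summit, read 5′ to 3′ along the gene's strand, with every CG dinucleotide in capitals. All 5 summits lie in the first intron of the longest protein-coding transcript of their gene. EFCAB2 (chr1:245134200-245134400, plus strand) and BICRAL (chr6:42750414-42750614, plus strand), at their control shRNA summits, stand for genes with an early gene-body summit in every list. They held 18 and 19 CG dinucleotides.
EFCAB2: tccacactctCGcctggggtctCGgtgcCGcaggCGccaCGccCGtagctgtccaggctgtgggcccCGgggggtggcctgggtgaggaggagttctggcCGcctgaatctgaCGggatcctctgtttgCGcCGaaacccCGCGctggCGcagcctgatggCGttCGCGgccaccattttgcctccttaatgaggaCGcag
BICRAL: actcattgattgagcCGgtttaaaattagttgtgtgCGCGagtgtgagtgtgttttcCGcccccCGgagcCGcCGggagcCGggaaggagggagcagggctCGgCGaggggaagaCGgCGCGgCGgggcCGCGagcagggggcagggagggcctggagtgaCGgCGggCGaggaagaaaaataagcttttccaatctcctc

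POLR3E (chr16:22309748-22309948, plus strand) carried the highest fold enrichment of any early gene-body peak in the control shRNA list. This summit lay farther from the TSS and held 4 CG dinucleotides.
POLR3E: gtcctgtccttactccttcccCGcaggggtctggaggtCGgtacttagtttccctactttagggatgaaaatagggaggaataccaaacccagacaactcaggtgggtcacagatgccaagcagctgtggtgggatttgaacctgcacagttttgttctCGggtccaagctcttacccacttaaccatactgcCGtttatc

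INKA2 (chr1:112281135-112281335, minus strand) had an early peak only without doxycycline and ENSG00000288678 (chr1:32400844-32401044, minus strand) only with it, within that arm. The first held 12 CG dinucleotides and the second 1.
INKA2: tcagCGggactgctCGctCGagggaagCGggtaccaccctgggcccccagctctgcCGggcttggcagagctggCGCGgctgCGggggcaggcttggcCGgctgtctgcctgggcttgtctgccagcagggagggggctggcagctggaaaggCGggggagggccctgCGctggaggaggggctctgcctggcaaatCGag
ENSG00000288678: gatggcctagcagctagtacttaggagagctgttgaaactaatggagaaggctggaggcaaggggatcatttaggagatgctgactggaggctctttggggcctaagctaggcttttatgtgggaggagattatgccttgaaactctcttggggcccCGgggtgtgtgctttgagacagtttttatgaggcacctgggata

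The number of early gene-body peaks was compared first within each arm. It was higher upon RECQL5 depletion, 6.43-fold in the shRNA5 list (5.25–7.87) and 6.88-fold in the shRNA7 list (5.62–8.42). The control list used here is much shorter than the peak set the study's methods describe for it, and in proportion more so than the other hairpin lists, so every fold over control depends on that list as deposited. At the promoters of the same genes, within 500 bp of the TSS, summits rose 2.77-fold (2.62–2.93) and 3.39-fold (3.22–3.58). Deeper in these genes, past 3000 bp, they rose 6.99-fold (6.63–7.38) and 10.5-fold (10–11.1). The early gene body thus gained more than the promoter upon either hairpin, with intervals that did not overlap. It gained less than the deeper gene body upon shRNA7, while upon shRNA5 the intervals of these folds overlapped. The whole lists differed 4.48-fold (4.35–4.62) and 6.08-fold (5.90–6.26), so the member fold was above that of all peaks for shRNA5, while for shRNA7 the intervals overlapped.

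With doxycycline the early gene body held 0.653 times as many peaks as without it (0.605–0.705). Promoter summits of the same genes fell to 0.826 times (0.797–0.855) and deeper summits to 0.753 times (0.739–0.768). Of the 3 zones, the early gene body therefore had the lowest ratio of peaks with the drug to peaks without it. The ratio of the whole lists was 0.720 (0.710–0.730).

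Early gene-body summits were set against promoter summits of the same list. There were 0.0638 per promoter summit in the control shRNA list (0.0525–0.0774), 0.148 for shRNA5 (0.137–0.160) and 0.129 for shRNA7 (0.12–0.139). The ratio was 2.32 times the control ratio upon shRNA5 (1.88–2.87) and 2.03 times upon shRNA7 (1.64–2.50). It was 0.235 without doxycycline (0.222–0.248) and 0.186 with it (0.174–0.198), or 0.791 times as high (0.727–0.861). In lists cut to equal length within an arm these quotients turned direction, to 0.944 (shRNA5), 0.941 (shRNA7) and 1.11 (doxycycline), and with a fold enrichment of at least 10 the hairpin quotients were 0.710 and 0.673. As a share of the list, members made up 2.04% (control), 2.93% (shRNA5), 2.31% (shRNA7), 3.49% (no doxycycline) and 3.17% (doxycycline).

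These differences changed when the lists were cut by significance score, fold enrichment or tag density. Score and tag number did not always go together. Upon shRNA7 the BICRAL peak held 2413 tags and scored 3100, while the ZBTB2 peak held 3153 tags and scored 224.89. In this pair the order by score thus differed from the order by tag number. The tag numbers of the peaks that each cut removed were not examined. When the lists of an arm were cut to the same length, keeping the peaks with the highest significance scores (−log10 of the p-value of the peak call, times 10), the folds of member number were 0.944 (shRNA5), 0.796 (shRNA7) and 0.957 (doxycycline). With a fold enrichment over background of at least 10, they were 1.17, 1.47 and 0.217. With at least 50 tags per kb of peak, a floor chosen after seeing the data, the shRNA folds were 5.08 and 5.61 and the doxycycline fold turned to 1.42. The shRNA7 fold was 3.94 with a false discovery rate of at most 5% and 4.30 with peaks under 1 kb apart merged.

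The members held 16170 tags in the control list, 86320 for shRNA5, 122184 for shRNA7, 34764 without doxycycline and 31913 with it, or 1.82 to 2.40% of the tags in peaks. The strength of the members differed between lists as well. Their median fold enrichment was 11.3 in the control shRNA list (10.8–12.2), 6.78 for shRNA5 (6.52–6.85) and 6.96 for shRNA7 (6.87–7.17). Their tag density was nearly equal across these lists, with medians of 45.4, 44 and 43.2 tags per kb. The weakest member had 33.1 tags per kb in the control list and 30.7 upon each RECQL5 hairpin. Without doxycycline the median was 21.9 tags per kb (21.6–22.1) and the weakest member had 15.8. With doxycycline the median was 31.6 (31.2–32.0) and the weakest member had 24.3. The weakest peak listed with doxycycline was thus denser than the typical one without it. The part of these floors in the difference in number was not tested.

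The gene count gave the same order, which was lost in lists of equal length (0.944-fold for shRNA5 and 0.815-fold for shRNA7). Of 14633 eligible genes, 108 had an early gene-body summit in the control shRNA list (0.738%), 690 for shRNA5 (4.72%) and 752 for shRNA7 (5.14%). There were 1475 such genes without doxycycline (10.1%) and 973 with it (6.65%). To hold the set of genes fixed, counts were repeated in the 1607 genes with a promoter summit in all 3 hairpin lists. These held 15 members in the control list, 99 for shRNA5 and 103 for shRNA7, a 6.60-fold (3.86–11.3) and 6.87-fold (4.02–11.7) difference. The 5993 genes with a promoter summit in both doxycycline lists held 1102 members without the drug and 755 with it, 0.685 times as many (0.625–0.752). Members in genes with a promoter summit were mostly peaks whose interval did not reach within 500 bp of the TSS. This held for all 21 such control members, 275 of 286 for shRNA5 and 416 of 420 for shRNA7. Over all genes such peaks differed 10.1-fold (7.47–13.7) and 11.9-fold (8.80–16.1), and 0.658-fold with doxycycline (0.606–0.714). The folds over all members are therefore no like comparison for the fixed genes.

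Early gene-body summits were next placed along the gene. The median summit was 1386 bp past the TSS in the control shRNA list (1135–1686), 1750 bp for shRNA5 (1647–1854) and 2081 bp for shRNA7 (1989–2180). Cells without doxycycline gave 1652 bp (1598–1700) and cells with the drug 1676 bp (1605–1758). Members were thus farthest from the promoter upon shRNA7, whereas the doxycycline lists did not differ beyond counting error. When the hairpin lists were cut to equal length, this order was lost and the shRNA7 median minus the control median was -70 bp.

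The first 500 bp of the window held 36.1% of the control members, 20.5% of those upon shRNA5 and 13.3% of those upon shRNA7. In the last 500 bp of the window the shares ran the other way, at 14.8%, 22.2% and 29.7%. Summits were then counted per Mb of sequence that met the rule, and divided by the density past 3000 and up to 10000 bp of the same genes. Over the whole window the quotient was 0.710 in the control list, 0.762 for shRNA5 and 0.615 for shRNA7. The early gene body was thus thinner in summits than the next stretch of the gene in all 3 hairpin lists. Upon shRNA7 the quotient climbed from 0.501 in the first 500 bp to 0.848 in the last, while in the control list it dropped from 1.57 to 0.488. In the doxycycline arm it was 0.944 without the drug and 1.07 with it, and the first 500 bp of the window were the densest, at 1.14 and 1.23.

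**Figure D1:**
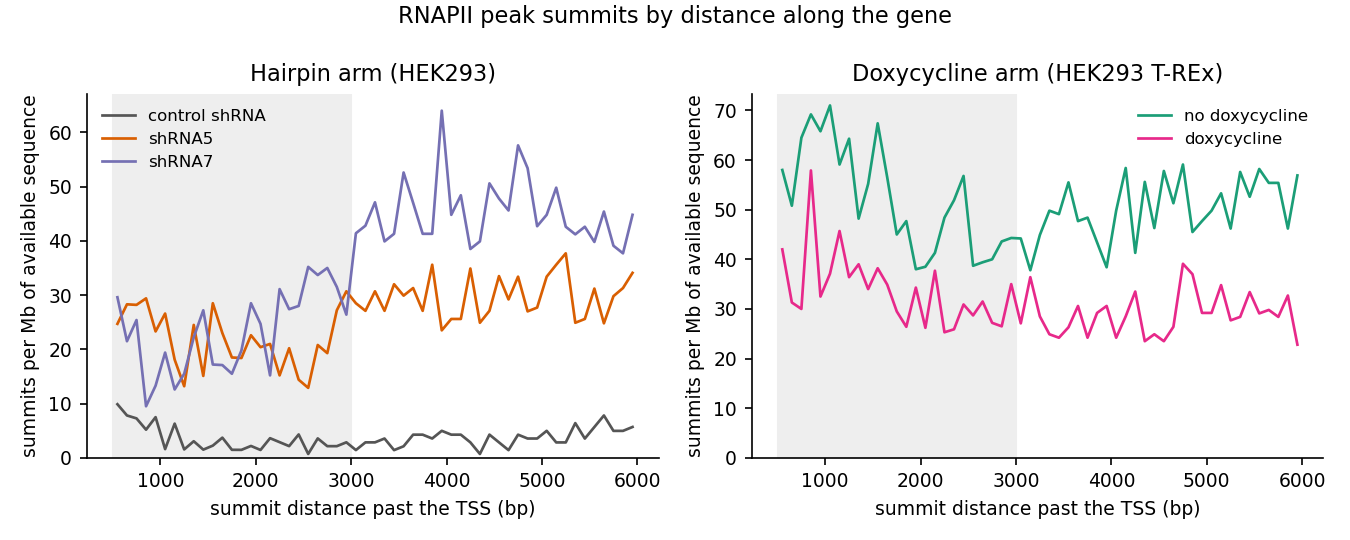
RNAPII peak summits per Mb of available sequence (vertical axis) against distance past the TSS in bp (horizontal axis, bins of 100 bp), with 1 line per list, the hairpin arm on the left and the doxycycline arm on the right; grey marks the window from over 500 to 3000 bp. The control shRNA line is highest next to the promoter, the shRNA7 line has its own low point just before 1000 bp and then climbs unevenly towards 3000 bp, and both doxycycline lines are highest near the promoter.

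At the edges of the rule, 8, 20, 24, 47 and 34 members (control, shRNA5, shRNA7, no doxycycline, doxycycline) lay in the first 100 bp of the window, and 4, 43, 37, 62 and 49 in the last 100 bp. Just outside, 45, 118, 118, 190 and 129 summits lay in the 100 bp before it, where the exclusion of other TSSs was not applied, and 2, 40, 58, 62 and 38 in the 100 bp after it. The exclusion removed 126, 404, 450, 726 and 563 peaks from the window.

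A summit in the early gene body does not mean that the peak left the promoter. In the control shRNA list 63 of 108 members had an interval that reached within 500 bp of their TSS (58.3%, 48.9–67.2%). Upon shRNA5 this was true of 238 of 694 (34.3%, 30.9–37.9%) and upon shRNA7 of 207 of 743 (27.9%, 24.8–31.2%). It was true of 12.4% without doxycycline (10.9–14.1%) and of 11.7% with it (9.95–13.8%). The remaining peaks are called detached.

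The gain upon RECQL5 hairpins was larger among detached members. These rose from 45 to 456 for shRNA5, a 10.1-fold difference (7.47–13.7), and to 536 for shRNA7, 11.9-fold (8.80–16.1). Promoter-reaching members rose 3.78-fold (2.86–4.98) and 3.29-fold (2.48–4.35). With doxycycline detached members were 0.658 times (0.606–0.714) and promoter-reaching members 0.618 times (0.495–0.771) as many as without, with overlapping intervals. In lists cut to equal length the share of promoter-reaching members was higher upon the RECQL5 hairpins than with the control, by 27.9 percentage points for shRNA5 and 32.4 for shRNA7, and with a fold enrichment of at least 10 by 9.52 and 12.4.

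**Figure D2:**
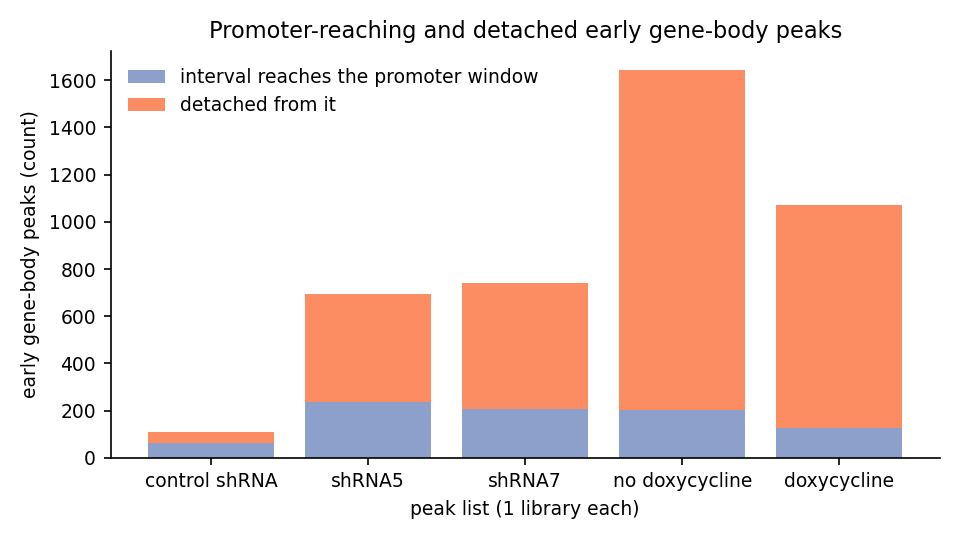
Number of early gene-body peaks (vertical axis) in each peak list (horizontal axis, 1 library each), split into peaks whose interval reaches within 500 bp of the TSS and peaks detached from it. Detached peaks number 45, 456, 536, 1439 and 947 from left to right, and only in the control shRNA list are they the smaller class.

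Detached members were shorter and held fewer tags. The split builds this in to a degree, since a longer interval reaches the TSS more easily. Upon shRNA7 their median length was 1640 bp with 67 tags, against 3039 bp with 183 tags for promoter-reaching members. Without doxycycline the corresponding medians were 575 bp with 12 tags and 805.5 bp with 22 tags. Many detached members had a second peak at the promoter of their own gene, namely 21 of 45 in the control list (46.7%), 275 of 456 for shRNA5 (60.3%), 416 of 536 for shRNA7 (77.6%), 1190 of 1439 without doxycycline (82.7%) and 749 of 947 with it (79.1%). Genes with a promoter summit had an early summit more often than genes without one in the doxycycline arm, at 15.0% (14.2–15.9%) against 4.73% (4.26–5.25%) without the drug and 11.2% (10.5–12.0%) against 3.15% (2.80–3.55%) with it. Upon shRNA7 the shares were 6.72% (6.13–7.36%) and 3.92% (3.53–4.36%).

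Whether the same places carried peaks in the other lists was asked by overlap of at least 1 bp. Of the control members 3 were overlapped by no shRNA5 peak and 7 by no shRNA7 peak, or 2.78% and 6.48%, against 2.57% and 11.6% of all control peaks. Of the members gained upon RECQL5 hairpins few had a control counterpart. No control peak overlapped 624 of the 694 shRNA5 members (89.9%, against 81.0% of all shRNA5 peaks) or 692 of the 743 shRNA7 members (93.1%, against 88.3% of all shRNA7 peaks). Between the hairpins 96 shRNA5 members had no shRNA7 peak (13.8%, against 14.8% of all shRNA5 peaks), and 421 shRNA7 members had no shRNA5 peak (56.7%, against 48.1% of all shRNA7 peaks). In the other arm 965 members without doxycycline had no counterpart with it (58.7%, against 54.4% of all peaks), and 411 members with doxycycline had none without it (38.3%, against 38.2% of all peaks). Members thus lacked a counterpart in the control list somewhat more often than the peaks of the whole RECQL5 hairpin lists, and members with doxycycline lacked one at about the share of all peaks. Requiring summits within 500 bp of each other lowered the overlapped share of shRNA5 members by shRNA7 peaks from 86.2% to 24.6%.

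The position of the summit within overlapping peaks was therefore compared. In 763 overlapping pairs of an shRNA5 and an shRNA7 peak with at least 1 early gene-body summit, the shRNA7 summit lay over 100 bp nearer the TSS or farther upstream in 438 and over 100 bp farther downstream in 246, and 79 were within 100 bp. The median shift was -505 bp (-656 to -299). The summit was in the early gene body upon shRNA5 and at the promoter upon shRNA7 in 266 pairs and the reverse in 79, a ratio of 3.37 (2.62–4.33). From the control list to shRNA7 the median shift was -541 bp over 122 pairs (-933 to -58), with 43 summits at the promoter only upon shRNA7 and 6 only in the control. From the control list to shRNA5 it was -82 bp over 134 pairs (-380 to 26), with 38 against 14. In the pairs with shRNA7, its summit thus lay upstream of the other more often than downstream. The shRNA7 members as a whole nevertheless lay farthest from the promoter. Every pair had to hold at least 1 early summit. Between the RECQL5 hairpins, 598 shRNA5 members but only 322 shRNA7 members had an overlapping peak in the other list. A member overlapped by several peaks of the other list was paired with the one of most tags. Median tags were 132 at promoters and 80 in the early gene body upon shRNA7, and 103 and 79.5 upon shRNA5. The part of these choices of pairs in the shift was not tested.

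No such shift was seen in the doxycycline arm. Over 1041 pairs the median was 10 bp (-18 to 60), and 221 summits moved from the early gene body to the promoter with the drug while 224 moved the other way, a ratio of 0.987 (0.820–1.19). With a fold enrichment of at least 10 the shRNA7 shift shrank to -97 bp and that with doxycycline became -118 bp. In lists cut to equal length the shRNA7 shift was -175 bp. A peak could enter more than 1 pair.

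**Figure D3:**
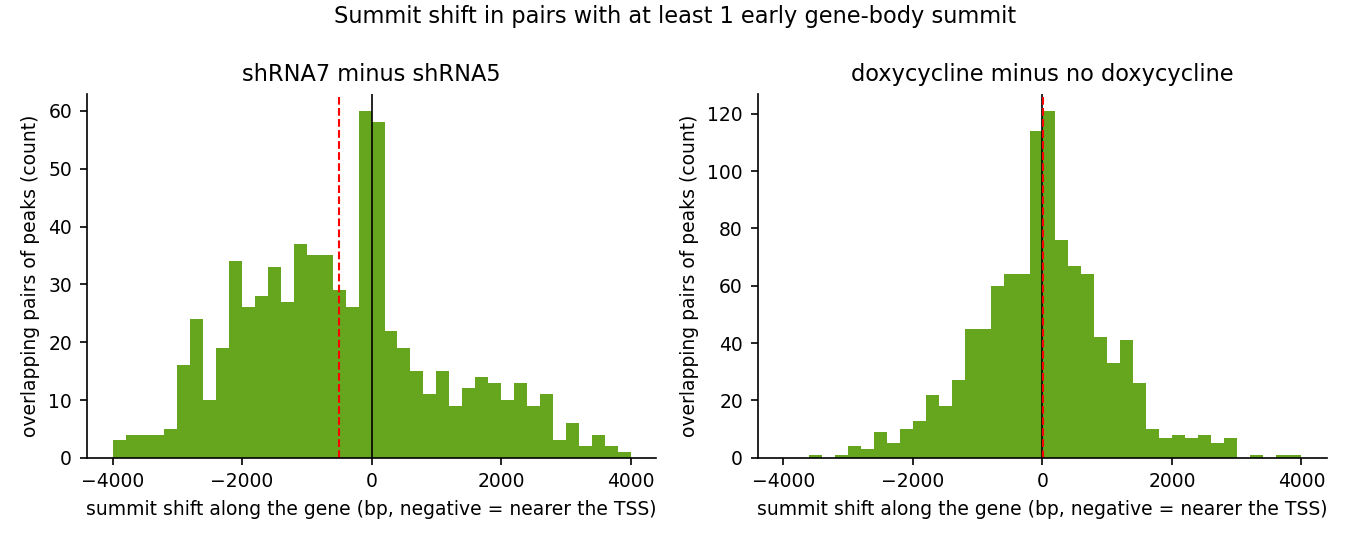
Histograms of the shift of the summit along the gene in bp (horizontal axis, negative towards the TSS, bins of 200 bp) over overlapping pairs of peaks (vertical axis, count) with at least 1 early gene-body summit, shRNA7 minus shRNA5 on the left (708 of 763 pairs drawn, the others beyond 4000 bp) and doxycycline minus no doxycycline on the right (1030 of 1041 drawn). The dashed line is the median, -505 bp on the left, where the histogram leans towards the TSS, and 10 bp on the right, where it is nearly symmetric.

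Most members lay in the first intron, which is where most of the window lies. The share was 79.6% in the control list (71.1–86.1%), 80.7% for shRNA5, 81.7% for shRNA7 (78.8–84.3%), 75.3% without doxycycline (73.2–77.4%) and 75.7% with it (73.0–78.1%). A grid of 124319 positions, every 250 bp across the window in all eligible genes and under the same exclusion, had 78.9% in first introns. The doxycycline arm thus lay just below the grid. Coding exons held 1.3% of the shRNA5 members and 1.62% of the shRNA7 members, against 3.83% without and 3.82% with doxycycline and 3.32% of the grid. Within 250 bp of the first 5′ splice site lay 1.85%, 1.73%, 1.62%, 2.50% and 1.77% of the members (control, shRNA5, shRNA7, no doxycycline, doxycycline), and 2.60% of the grid. Among promoter-reaching members the share was 14.2% (10.1–19.7%) without doxycycline and 7.94% (4.37–14.0%) with it. It was 3.17% in the control list, 3.78% for shRNA5 and 4.35% for shRNA7. In the first 500 bp of the window lay 173 of the 204 promoter-reaching members without doxycycline and 111 of the 126 with it. The grid over the whole window is therefore no like comparison for them. Some members lay within 500 bp of another annotated TSS that is not of a protein-coding transcript, 22.2% in the control list, 14.8% for shRNA5, 11.0% for shRNA7 and 13.8% in either doxycycline list, against 8.47% of the grid.

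GC content, taken over 150 bp on either side of the summit, fell with distance from the TSS in members and grid alike. Over the whole window its median was 48.8% in the control list (46.2–51.2%), 43.9% for shRNA5 (42.9–44.9%), 44.2% for shRNA7 (43.2–45.5%), 49.5% without doxycycline (48.8–50.2%) and 46.5% with it (45.5–47.2%). The grid had 45.2%. The median with doxycycline minus that without was -2.99 percentage points (-4.65 to -1.66), and 1.33 among peaks with a fold enrichment of at least 10.

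The hairpin lists differed near the promoter. In the first 500 bp the median was 55.8% for shRNA7 (53.5–58.8%) and 49.2% for shRNA5 (47.8–51.8%), with 51.2% in the grid. In the next 500 bp it was 51.5% (49.2–54.2%) and 45.2% (43.9–46.5%), with 45.8% in the grid. Past 2500 bp both hairpins had about the same, 39.9% and 40%, below the 43.5% of the grid. The same positions in genes with a promoter summit had 41.9% for shRNA7, above the interval of its members (38.5–40.9%), and 41.5% for shRNA5, within the interval of its members (38.2–42.9%). In the doxycycline arm the list without the drug was higher in all 5 bins, with 58.1% (56.1–60.1%) against 53.8% (52.5–56.8%) in the first 500 bp and 46.2% (44.9–48.2%) against 41.2% (39.9–43.2%) in the last. Genes with a promoter summit in the doxycycline lists had 42.5% and 42.2% in the last bin.

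CpG dinucleotides, which mark the unmethylated islands at many promoters, were counted against the number expected from base composition. The quotient over all members of a list was 0.525 (control), 0.433 (shRNA5), 0.448 (shRNA7), 0.473 (no doxycycline) and 0.474 (doxycycline), against 0.357 over the grid. Promoter-reaching members had 0.628, 0.580, 0.647, 0.703 and 0.723, and detached members 0.342, 0.330, 0.316, 0.423 and 0.425. In the first 500 bp lay 6 of the 456 detached shRNA5 members, but 148 of 1439 without doxycycline and 92 of 947 with it. CpG was most frequent there, so for the detached members of the hairpin lists the whole window is no like comparison. In the 3 bins of 500 bp that follow, detached members had 0.435, 0.367 and 0.305 (shRNA5) and 0.498, 0.343 and 0.311 (shRNA7), above the grid's 0.397, 0.325 and 0.287. Without doxycycline they had 0.491, 0.432 and 0.344, and with it 0.521, 0.415 and 0.353, also above the grid. In these 3 bins the same positions in genes with a promoter summit were nearer to the members than the whole grid. They had 0.425, 0.337 and 0.295 for shRNA5 and 0.430, 0.339 and 0.294 for shRNA7. For the doxycycline lists they had 0.431, 0.341 and 0.297 without the drug and 0.430, 0.340 and 0.298 with it. These quotients have no intervals, so the small differences cannot be weighed. In the last bin detached members had 0.248 (shRNA5) and 0.224 (shRNA7), below the grid's 0.268, but 0.301 without doxycycline and 0.273 with it. Positions in genes with a promoter summit had 0.274 (shRNA5) and 0.272 (shRNA7) there, farther from the hairpin members than the grid.

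**Figure D4:**
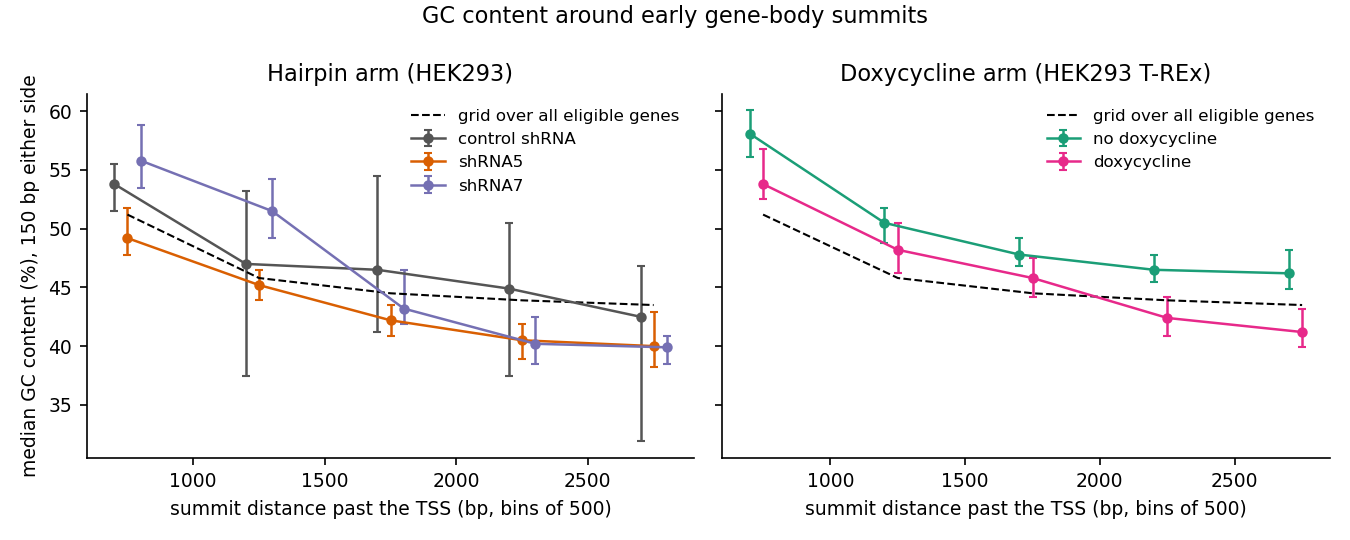
Median GC content in percent over 150 bp on either side of early gene-body summits (vertical axis) by distance past the TSS in bins of 500 bp (horizontal axis), hairpin arm left and doxycycline arm right; bars are 95% order-statistic intervals over peaks and the dashed line is the grid over all eligible genes. The shRNA7 points lie above the shRNA5 points up to 1500 bp and meet them beyond, and the points without doxycycline lie above those with it past 2000 bp.

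Short motifs were looked for in the same windows of 150 bp on either side. GGGCGG on either strand, the core of GC boxes, was in 20.4% (control), 10.5% (shRNA5), 15.5% (shRNA7), 21.4% (no doxycycline) and 18.3% (doxycycline) of the windows, and in 11.1% of grid windows. Among promoter-reaching members it was in 35.3% for shRNA7 (29.1–42.0%) and 15.5% for shRNA5 (11.5–20.7%). On the gene's strand AATAAA, the letters of the polyadenylation signal, was in 8.33%, 14.6%, 18.4%, 11.8% and 15.1% (grid 16.2%), and TATAAA, which can share letters with it, in 7.41%, 10.5%, 11.3%, 7.97% and 10.8% (grid 11.1%). The 5′ splice site letters GGTAAG were in 3.70%, 5.91%, 6.73%, 5.36% and 6.15% (grid 5.03%) and GGTGAG in 12.0%, 9.80%, 10.6%, 13% and 11.5% (grid 10.1%). These are matches of letters, not sites.

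Individual genes were then followed across the lists. An early gene-body summit was found in any list in 2732 genes, and in only 1 list in 1806 of them (66.1%). It was found in 4 lists in 52 genes and in all 5 in 15, namely LANCL2, TES, GTF2A1, BICRAL, MEIG1, TFAP4, ANP32B, ANP32A, NEK7, POLR3E, SREBF1, FER, QSER1, SPEN and EFCAB2. The 8 of these with the highest tag density in their weakest list are described by tags per kb of peak, which was not scaled to library depth.

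BICRAL, a subunit of a BAF-type chromatin remodelling complex, had 75.7 tags per kb in the control list, 122 for shRNA5, 179 for shRNA7, 71.0 without and 76.8 with doxycycline. Its summits lay 722 to 1009 bp past the TSS. The shRNA7 peak, from 42747793 to 42761255 on chromosome 6, was the densest of the 5 and also the longest.

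POLR3E, a subunit of RNA polymerase III, had 116, 148, 170, 69.5 and 119 tags per kb in the same order of lists. Its summits, in the first intron shown above, lay between 1152 and 1245 bp. GTF2A1, which encodes the large subunit of the general factor TFIIA, had 92.4, 120, 117, 96.6 and 69.6 tags per kb, with summits at 1470 to 1565 bp. In the control and doxycycline lists its peak was detached, with a separate promoter peak of 137 and 134 tags, and in the others a single interval covered both.

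SPEN, a large transcriptional co-repressor, had 69.9, 117, 114, 71.2 and 81.3 tags per kb, and its summits lay at 1601 to 1671 bp in every list. The peak upon shRNA7 was 30884 bp long with 3507 tags, against 6005 bp with 420 tags in the control list. EFCAB2, an EF-hand calcium-binding protein, had 81.2, 104, 99.3, 107 and 82.4 tags per kb at 530 to 911 bp. SREBF1, a regulator of lipid synthesis, had 55.3, 61.3, 70.5, 52.4 and 64.2 at 530 to 591 bp.

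MEIG1, known for its role in sperm formation, had 50.7, 66.8, 94.8, 69.3 and 72.0 tags per kb at 654 to 785 bp. ANP32B, an acidic nuclear histone chaperone, had 59.2, 77.3, 72.5, 91.3 and 84.5, and its summit varied most, from 699 bp for shRNA7 to 1618 bp with doxycycline. In each of the 8 genes both RECQL5 hairpin lists had a higher density than the control list. They were chosen for high density, and levels were not scaled to depth.

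**Figure D5:**
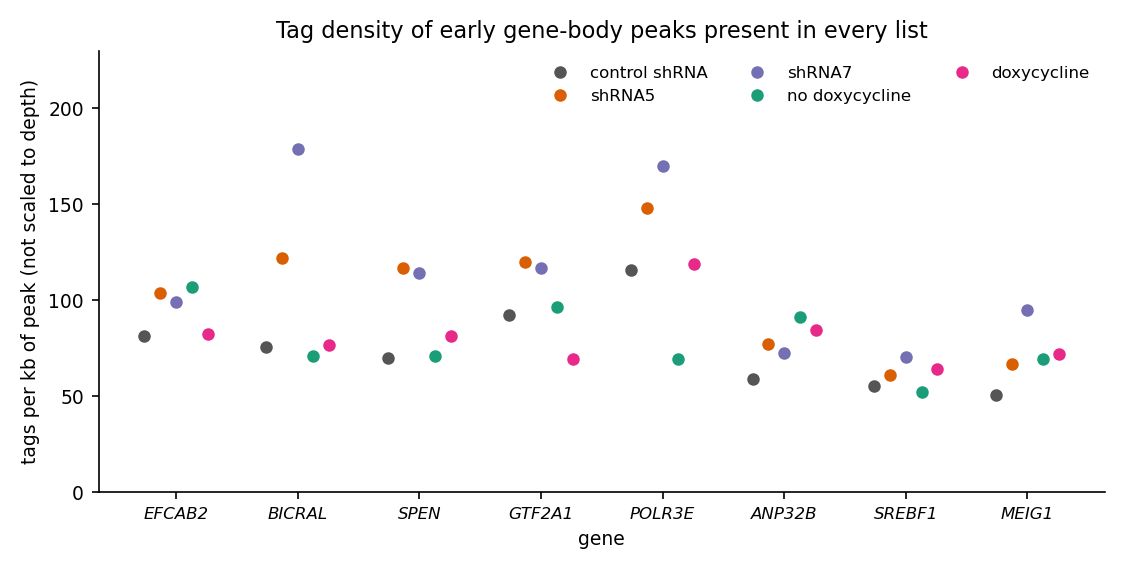
Tags per kb of the early gene-body peak (vertical axis, not scaled to library depth) in 8 genes with such a peak in every list (horizontal axis), with 1 point per list and no replicates. POLR3E and BICRAL upon shRNA7 are highest at 170 and 179 tags per kb, and the control shRNA point is below both RECQL5 hairpin points in each gene.

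The highest fold enrichments per list fell partly on the same genes. POLR3E led in the control list (42.74) and the shRNA5 list (37.96), and in the shRNA7 list it came just behind GTF2A1 (49.83 and 50.37). NUDT19, a hydrolase of coenzyme A, led without doxycycline at 115.61, followed by SREBF1 at 91.14 and ANP32B at 87.19. LONP1, a mitochondrial protease, led with doxycycline at 41.64, followed by LMNB1 (lamin B1) at 40.53 and MEIG1 at 37.11. The NUDT19 summit lay at 1676 bp in the control list, 1690 bp for shRNA7 and 1681 bp without doxycycline, whereas upon shRNA5 and with doxycycline the only summit was at the promoter, with 902 and 264 tags. LONP1 likewise had its early summit at 1577 to 1705 bp in 4 lists and a promoter summit only, with 193 tags, without doxycycline. DNAJC9, a histone chaperone with a J domain, was among the top 3 for shRNA5 (29.68), with a summit 504 bp past the TSS in coding exon 2, and had a promoter summit but no early summit in the other lists. H3-7, a histone H3 gene, came after POLR3E and GTF2A1 in the control list (22.25). Short reads cannot always be told apart between near-identical histone genes, so its peak is uncertain.

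A control peak touched the early window in 1947 of 14633 eligible genes (13.3%), so most genes had none there. In 143 of the 193 genes with an early summit in both RECQL5 hairpin lists, no control peak touched the window. The 6 with the most tags in the weaker hairpin list were ZBTB2, VCAN, PPP1R3F, NQO2, INO80D and PHLPP1. ZBTB2, a zinc finger transcription factor, had 689 tags over 9913 bp for shRNA5 and 3153 tags over 33316 bp for shRNA7, with summits at 875 and 852 bp. VCAN, which encodes the matrix proteoglycan versican, had 385 and 520 tags with summits at 2644 and 1817 bp. NQO2, a quinone reductase, had 287 and 363 tags with summits at 1359 and 1370 bp. INO80D, of the INO80 remodelling complex, had 272 and 300 tags at 1505 and 1546 bp.

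PPP1R3F, a subunit that targets protein phosphatase 1 to glycogen, had 299 and 509 tags at 2416 and 2371 bp. PHLPP1, a phosphatase that acts on AKT, had 250 and 585 tags at 1869 and 2186 bp. All 6 also had an early summit without doxycycline, with 222 tags for ZBTB2 and 9 for PHLPP1 at the extremes, and 4 had one with the drug. In the early window of these 6 genes the control shRNA list thus had no peak, while both knockdown lists and the list without drug had one. The places were not always the same. Without drug the summits of PPP1R3F and PHLPP1 lay at 546 and 757 bp, in peaks that did not overlap the shRNA5 peaks.

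Over all eligible genes, a peak touched the early window in 36.6% without doxycycline and in 27.1% with it. In 467 of the 1475 genes with an early summit without doxycycline, no peak touched the window with it. The reverse was true of 116 of the 973 genes with an early summit with it. The 4 with the most tags only without the drug were INKA2 (59 tags, 782 bp), JARID2 (44 tags, 1908 bp), SALL1 (38 tags, 546 bp) and SLC35F1 (38 tags, 797 bp). JARID2 belongs to Polycomb repressive complex 2, SALL1 is a transcription factor of kidney development, and INKA2 inhibits the kinase PAK4. With doxycycline INKA2 and JARID2 had a promoter summit, in peaks of 13 and 28 tags, which neither had without it, and SALL1 and SLC35F1 had none in either list. The 4 with the most tags only with the drug were ENSG00000288678 (50 tags, 2667 bp), IARS1 (34 tags, 2513 bp), REXO4 (31 tags, 1658 bp) and TIMM21 (30 tags, 1460 bp). IARS1 encodes the cytosolic isoleucyl-tRNA synthetase and TIMM21 acts in mitochondrial protein import. Each of these 4 had a promoter peak without doxycycline of 28, 87, 63 and 47 tags.

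Gene groups were described by how many eligible members had an early summit, beside the share of all eligible genes given above. Of 20 translation factors this was 0 in the control list, 4 for shRNA5, 0 for shRNA7, 6 without doxycycline and 7 with it. The last 2 counts, 30% and 35.0%, compare with 10.1% and 6.65% of all genes, and EIF1AX, EIF3B and EIF4A3 were in both. Of 25 chromatin regulators the counts were 1, 4, 1, 9 and 7, and EZH2, KDM6B, KMT2A, SMARCC1 and SUZ12 were in both doxycycline lists. EZH2 and SUZ12 are core subunits of Polycomb repressive complex 2.

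Of 13 heat shock and chaperone genes the counts were 2, 0, 1, 4 and 5, with TCP1, CCT2 and CCT5, subunits of the chaperonin that folds actin and tubulin, in both doxycycline lists. Of 25 genes of the ubiquitin and SUMO pathway they were 1, 4, 1, 8 and 4. Of 21 SR and hnRNP splicing factors they were 3, 2, 0, 2 and 1, with HNRNPM in 3 lists. Of 19 genes that control pausing and elongation they were 2, 2, 3, 4 and 3, with CCNT1, a cyclin of P-TEFb, in both doxycycline lists. Promoter summits also differed in frequency between the groups and all genes. Without doxycycline these were found in 17 of the 20 translation factors and 15 of the 25 chromatin regulators, against 51.9% of eligible genes. The part of promoter occupancy in the group counts was not tested.

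Genes whose elongation the study followed singly were too few to set against the shares of all genes given above. EFNA2, KIFAP3, CTNNBL1, ITPR1 and IFT80 had none in any list. OPA1, a mitochondrial fusion protein, had 1 for shRNA5, 2957 bp past the TSS in the first intron, with 47 tags over 1299 bp, near the end of the window. RECQL5 (ENSG00000108469) had no early summit in a hairpin list, and peak lists do not measure the knockdown. Without doxycycline it had 2 early peaks, the stronger from 73661619 to 73663835 on chromosome 17 with 135 tags and a summit 661 bp past the TSS. With doxycycline the stronger of 2 ran from 73661775 to 73663990 with 196 tags and a summit at 680 bp. Both summits lay in coding exon 2, the sequence of which the introduced plasmid also carries, so reads from gene and plasmid cannot be told apart.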

How the data were processed

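RNAPII ChIP-seq and IgG libraries were sequenced with single-end reads. Per the labels and the study's methods, the authors aligned reads to hg19 with Bowtie 0.12.7 (base calling with CASAVA 1.8) and called peaks per library with MACS 1.4.2. For each peak the deposited lists give raw tag counts, a score (-10 times log10 of the p-value), a ratio (fold enrichment over background) and a percent false discovery rate, none of them rescaled between libraries here. Deposited scores saturate in the strongest peaks.

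Summits were placed on GENCODE release 44 mapped to GRCh37 with Python 3.11.15, numpy 2.4.6, pandas 2.3.3, scipy 1.17.1 and pysam 0.24.0. The assignment of members, the overlap of peaks and the Wilson and median intervals were tested on simulated data. Intervals (95%) were Wilson for shares, Wilson converted to odds for ratios of counts, log-based for ratios of shares and order-statistic for medians. Tags are reads without molecular identifiers, so intervals cover counting error only. Groups followed the labels, with 1 library each, and no test between conditions was run. IgG libraries had no list and entered only through the authors' peak calls.

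The peaks, gene groups and named genes were chosen with earlier results of these data known. Named were the 8 genes of highest lowest tag density with an early summit in all lists, the 3 members of highest fold enrichment per list, the 6 genes gained upon both hairpins with most tags, the 4 genes with most tags listed only without and the 4 only with doxycycline, 7 genes of the study, and any group member in at least 4 lists, of which there was none. Others were named after their values were seen. Alternatives covered score, false discovery rate and fold enrichment floors, merging, list length, peak centre, window, annotation and overlap rules. Some items withheld from this text are not reported here.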

Additional observations from a re-analysis of the deposited data

How the results depend on the processing

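Comparisons are given as shRNA5 over control, shRNA7 over control, and doxycycline over none. Over all alternatives, 251 of 395 values of comparisons stayed within their interval or tolerance, 124 moved and 20 reversed, and of 410 levels of single lists 221 stayed and 189 moved. All 37 comparisons stayed with chromosomes 1 to 22 and X only, with the longest spliced transcript and with the TSSs of all transcripts. The cause of the changes was not tested. No replicate could be left out, since every group is a single library. No paired analysis was possible because groups of 1 library share no replicate pairs to block on. Peaks under each list's own tag floor could not be seen.

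With a fold enrichment of at least 10, the number of members was 1.17, 1.47 and 0.217 times the reference, genes with a member 1.17, 1.5 and 0.231, the share of the list 0.903 (reversed), 0.766 and 0.626, and members per promoter summit 0.710, 0.673 (both reversed) and 0.321. Promoter-reaching shares differed by 9.52, 12.4 (both reversed) and 8.79 points, the first-intron share upon shRNA5 by 10.4 points, the median distance upon shRNA7 by 164 bp and with doxycycline by -118 bp, GC upon shRNA7 by 0 and with doxycycline by 1.33 points (reversed), and the CpG quotient by 0.0415, 0.0961 and 0.0798. Summit shifts were -97 bp from shRNA5 to shRNA7 and -118 bp with doxycycline.

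In lists cut to equal length, the number was 0.944, 0.796 (both reversed) and 0.957, genes 0.944 and 0.815 for the hairpins (reversed), the share 0.944 (reversed) and 0.796, and members per promoter summit 0.944, 0.941 and 1.11 (all reversed). Promoter-reaching shares differed by 27.9, 32.4 (both reversed) and -3.60 points, distances upon hairpins by -52 and -70 bp (reversed for shRNA7), GC by -0.498 and 3.99 points (reversed for shRNA7) and CpG by 0.0681 and 0.148. The shift from shRNA5 to shRNA7 was -175 bp.

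With peaks under 1 kb apart merged, the number was 4.74, 4.30 and 0.729, members per promoter summit 1.79, 1.37 and 0.879, the share 0.822 for shRNA7 and 1.04 (reversed) for doxycycline, and genes 4.45 for shRNA7. Promoter-reaching shares upon hairpins differed by -12.9 and -11.7 points. With doxycycline the distance differed by -244 bp, GC by -1.33 points and the summit shift was 73 bp.

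With a score of at least 100, the share was 1.13 and 0.903 for the hairpins, members per promoter summit 1.24, 1.11 and 0.892, CpG upon hairpins differed by -0.0357 and -0.0184, and the first-intron share with doxycycline by 4.38 points. With a false discovery rate of at most 5%, shRNA7 gave a number of 3.94, genes of 3.99, members per promoter summit of 1.34 and a promoter-reaching difference of -17.6 points. With peak centres, CpG upon hairpins differed by -0.00522 and -0.0203, and promoter-reaching shares by -15.4 points upon shRNA7 and 2.19 with doxycycline. In a window from over 1000 to 3000 bp the hairpin number was 8.01 and 9.33, the share 1.79 and 1.54, members per promoter summit 2.90 and 2.75, distances differed by -80 and 152 bp, CpG by -0.0147 and 0.00952, and promoter-reaching upon shRNA7 by -17.9 points. GC over 1 kb either side differed by -1.35 points with doxycycline. A floor of 50 tags per kb was an alternative chosen once the data had been seen, and the number was 5.08, 5.61 and 1.42 (reversed).

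Percentages of members overlapped follow in the order control by shRNA5, control by shRNA7, shRNA5 by control, shRNA5 by shRNA7, shRNA7 by control, shRNA7 by shRNA5, no doxycycline by doxycycline, and the reverse. With 50% of both peaks shared they were 50, 25.0, 5.62, 35.6, 1.75, 23.7, 17.7 and 27.4. With summits within 500 bp they were 42.6, 31.5, 6.20, 24.6, 4.31, 22.7, 25.7 and 37.8. With a fold enrichment of at least 10 they were 78.2, 75.6, 44, 76.9, 33.9, 47.0, 26.1 and 77.6, and in lists of equal length 81.5, 62.0, 52.0, 65.7, 43.0, 51.2, 49.1 and 55.5. Merging gave 16.4, 90.3, 15.1, 55.4 and 35.6 for shRNA5 by control through no doxycycline by doxycycline. A score of at least 100 gave 100, 89.1, 50.8 and 75.4 for control by shRNA5, shRNA5 by shRNA7 and both doxycycline pairs. A false discovery rate of at most 5% gave 78.8, 11.3 and 58.4 for shRNA5 by shRNA7, shRNA7 by control and shRNA7 by shRNA5. Peak centres gave 81.9, 29.4, 23.4, 67.2, 44.4 and 65.5 for all but control by shRNA5 and shRNA5 by shRNA7. The narrower window gave 7.96, 4.97, 38.7 and 58 for shRNA5 by control, shRNA7 by control and both doxycycline pairs.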

Other observations

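Genes with several early gene-body summits were mostly a matter of the doxycycline arm. There were 186 among 1475 genes with any such summit without the drug (12.6%, interval 11.0 to 14.4%) and 108 among 973 with it (11.1%, interval 9.28 to 13.2%). Upon shRNA5 and shRNA7 there were 8 of 690 and 8 of 752, and in the control shRNA list 0 of 108, which allows a share of up to 3.43% by the Wilson interval. Peaks were shorter in the doxycycline arm, with a median of 592 bp without the drug against 1787.5 bp upon shRNA5, and the part of peak length in this count was not tested.

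The gene sets overlapped in part. Both RECQL5 hairpin lists shared 193 of the 1249 genes with an early summit in either, and 168 of these had none in the control list. Both doxycycline lists shared 481 of 1967 genes.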
